A study of Mus musculus with 24 samples.

Results

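The 10 genes described here are Nr1h3, which encodes the nuclear receptor LXR alpha, and 9 genes known as LXR targets in lipid efflux and lipid remodelling: Abca1, Abcg1, Apoe, Apoc1, Pltp, Scd1, Lpcat3, Mylip and Srebf1. They were chosen by name, with earlier results of these data known. They are 10 of 45792 genes in the deposited values and 10 of 14227 genes tested. RNA was sequenced from CD11c+ MHC class II+ cells, the gate used for liver dendritic cells, sorted from female C57BL/6 mice. All mice had been fed for 2 weeks a diet that lacks methionine and choline, which gives steatohepatitis, and all had received liposomes carrying the fluorescent membrane dye DiI by vein 24 hours before the sort. Curcumin, a polyphenol of turmeric, was the cargo of 1 kind of liposome and the other kind was empty, and the cells were separated into those that carried DiI (DiI-positive) and those that did not (DiI-negative). This gave 4 groups of 3 libraries. Mice without liposomes or on a normal diet are not among the groups analysed here, and the labels used give no age. Values are log2 normalized values per library, whose form matches a scale that shrinks differences of low genes, although the transform is not stated. They are not divided by gene length, so levels are compared between libraries and never between genes.

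LXR alpha and its close relative LXR beta are receptors for oxysterols and for desmosterol, so they respond when a cell holds excess cholesterol. They bind DNA with a retinoid X receptor (RXR) partner at a direct repeat of a short hexamer with a 4-base spacer (DR4). In macrophages, the target genes export cholesterol through membrane transporters, supply apolipoproteins that accept it, change the saturation of phospholipids, and limit the uptake of lipoproteins. LXR alpha is also known as an identity gene of Kupffer cells, the macrophages that reside in the liver sinusoids. The SREBP2 system, which responds to sterol shortage, works in the opposite sense and turns on cholesterol synthesis.

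The promoter window of 7 of the 10 genes was read from RefSeq on GRCm38.p6, as 300 bases from 250 before to 50 after each listed start. A DR4-like motif, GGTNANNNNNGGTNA on either strand, was present in 1 window of Abca1 and in 1 of 3 windows of Srebf1, and in none of the other windows. Over all 32851 RefSeq windows, 236 (0.718%) held it. Both sequences are shown because the motif letters are closely alike in a gene that differed between the gates and in one that did not pass the test. Capitals mark the motif, read here on the gene's strand, which is the reverse strand of the motif. The Abca1 window is chr4:53159846-53160145 on the minus strand, with the motif from position -67 to -53 relative to the start. The Srebf1 window is chr11:60210422-60210721 on the minus strand, with the motif from position -182 to -168.
Abca1: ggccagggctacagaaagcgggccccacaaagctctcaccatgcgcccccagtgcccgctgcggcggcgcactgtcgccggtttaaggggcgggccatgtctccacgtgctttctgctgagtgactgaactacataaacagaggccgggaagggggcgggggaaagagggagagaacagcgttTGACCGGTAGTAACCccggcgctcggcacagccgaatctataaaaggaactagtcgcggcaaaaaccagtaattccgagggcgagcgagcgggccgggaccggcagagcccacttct
Srebf1: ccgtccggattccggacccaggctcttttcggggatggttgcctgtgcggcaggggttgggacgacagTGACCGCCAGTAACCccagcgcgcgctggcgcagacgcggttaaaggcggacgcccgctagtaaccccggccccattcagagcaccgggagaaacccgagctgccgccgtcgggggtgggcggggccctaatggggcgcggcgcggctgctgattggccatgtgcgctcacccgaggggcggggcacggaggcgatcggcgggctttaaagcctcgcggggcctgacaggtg
Read on its own strand, the motif was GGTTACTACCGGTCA in Abca1 and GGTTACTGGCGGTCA in Srebf1. A match describes these letters and is not a binding site shown by these data. The windows of Nr1h3, Pltp, Lpcat3, Apoe and Mylip held no match. Abcg1, Apoc1 and Scd1 are named only.

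The gate and its purity bear on every value below. The sorting genes were high in all 12 libraries, with Cd74 (the MHC class II invariant chain) from 18.99 to 19.37 and Itgax (CD11c) from 12.01 to 13.48. The dendritic cell genes Flt3 and Zbtb46 were lower in DiI-positive cells, by -1.65 ± 0.32 and -1.81 ± 0.51 on the log2 scale (mean of both liposomes). Zbtb46 varied most in curcumin DiI-positive cells, with an SD of 1.9. Of 5 dendritic cell genes, 3 were lower in that mean at a limma adjusted p under 0.05. None was under either liposome alone. With 1 library left out, the count of 3 ran from 1 to 4. Replicate 3 of each curcumin gate stood apart. Its DiI-negative library held the highest Flt3 (13.47) and Zbtb46 (12.09) of all 12 libraries. Its DiI-positive library held the highest mean of 8 sinusoidal endothelial markers (9.44, against 5.74 to 7.13 in the other 11 libraries). Counts are therefore also given without those 2 libraries, an alternative chosen after the data were seen. In sorted pools, fewer cells of a type and less RNA per cell cannot be told apart.

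The first question is whether the 10 genes differed between cells with and without liposome dye. Averaged over both liposomes, 8 of the 10 genes were higher in DiI-positive cells and none was lower. They were Nr1h3, both cholesterol exporters, Apoe, Apoc1, Pltp, Scd1 and Mylip, with rises from 1.32-fold (Mylip) to 3.2-fold (Apoc1). Lpcat3 and Srebf1 did not pass the test. Of all 14227 genes, 5.54% were called higher in the same comparison and 6.56% lower. The median log2 difference of the 10 genes was 0.95, against 0.005 over all genes tested. A call means a Benjamini-Hochberg adjusted p under 0.05 in limma, over all genes tested. For 7 of the 10 genes every DiI-positive library lay above every DiI-negative library, which held for 2.52% of all genes tested. Because the 10 genes were chosen with earlier results of these data known, these contrasts with all genes are descriptions and not tests.

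**Figure D1:**
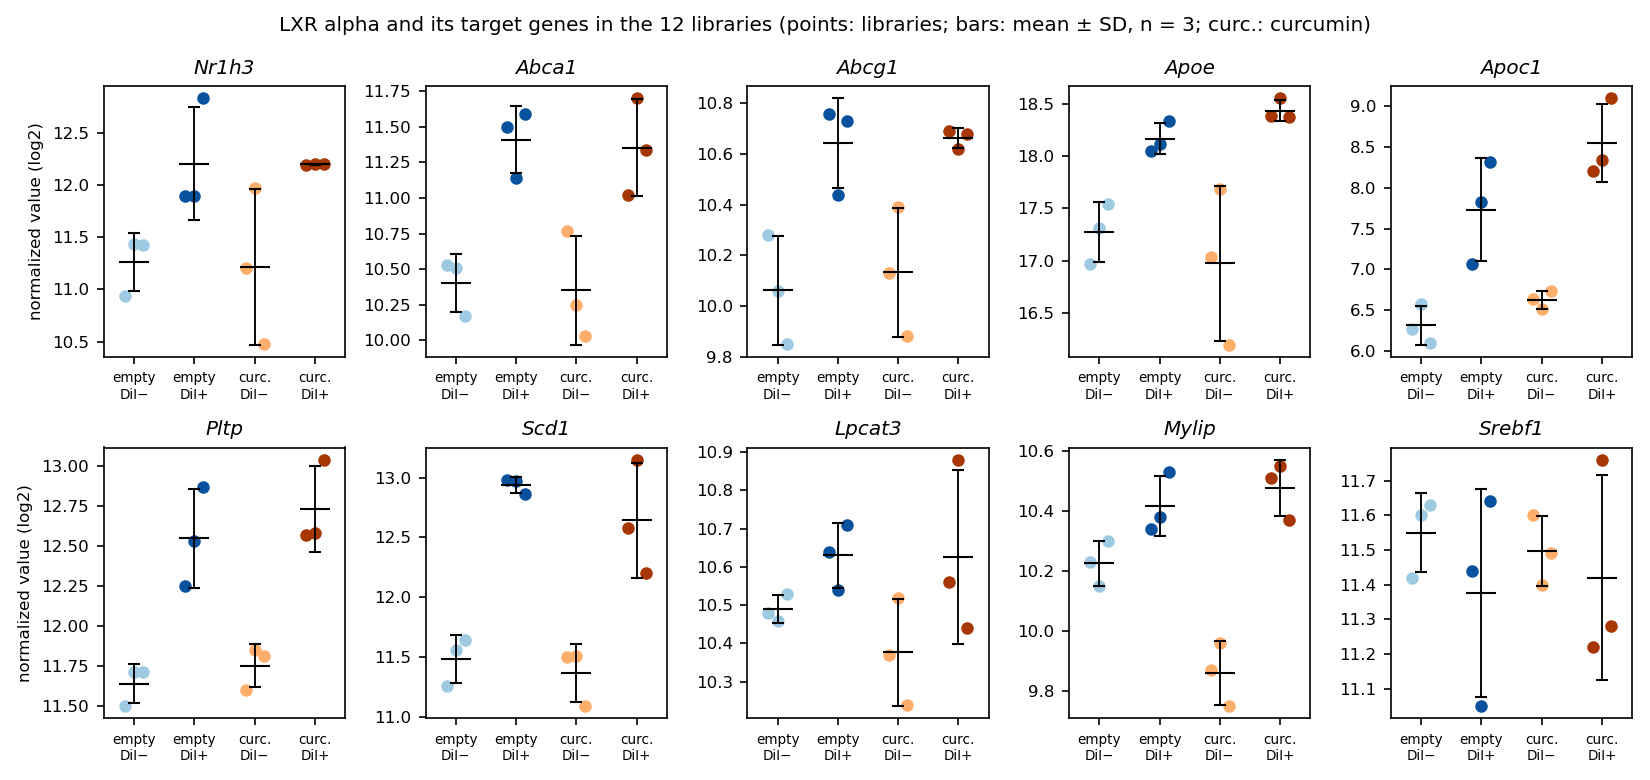
Normalized log2 values of the 10 genes in the 12 libraries, with 1 panel per gene and its own vertical axis, which does not start at 0. Points are libraries, and bars are the mean ± SD of 3 libraries per group. In Abca1, Abcg1, Apoe, Apoc1, Pltp, Scd1 and Mylip all 6 DiI-positive libraries lie above all 6 DiI-negative libraries, whereas those of Nr1h3, Lpcat3 and Srebf1 overlap.

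The receptor gene Nr1h3 (chr2:91184061-91202834, minus strand; positions of whole genes are on GRCm38) stood at 10.94, 11.43 and 11.42 in replicates 1 to 3 of DiI-negative cells after empty liposomes, and at 11.89, 11.89 and 12.83 in DiI-positive cells. After curcumin liposomes it was at 11.20, 11.97 and 10.48 in DiI-negative and at 12.19, 12.20 and 12.20 in DiI-positive cells. The gates did not overlap within either liposome. Across liposomes, curcumin DiI-negative replicate 2 (11.97) passed the lowest DiI-positive libraries (11.89). The mean difference was 0.96 ± 0.24 on the log2 scale (SE), or 1.94-fold (limma adjusted p = 0.023). Its adjusted p was the largest of the 8 calls and ran from 0.0063 to 0.060 over 20 alternatives. The call ended without empty DiI-negative replicate 1 (0.88, adjusted p = 0.060) and without curcumin DiI-negative replicate 1 (0.95, adjusted p = 0.051).

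Abca1 (chr4:53030787-53159895, minus strand) encodes the transporter that loads cholesterol and phospholipid onto lipid-poor apolipoprotein A-I. Its values were 10.53, 10.51 and 10.17 in DiI-negative and 11.50, 11.14 and 11.59 in DiI-positive cells after empty liposomes. After curcumin liposomes they were 10.77, 10.25 and 10.03 in DiI-negative and 11.02, 11.70 and 11.34 in DiI-positive cells. The lowest DiI-positive library (11.02) was above the highest DiI-negative one (10.77). The difference was 1.01 ± 0.15, or 2.01-fold (limma adjusted p = 0.0022).

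Abcg1 (chr17:31057675-31117988, plus strand), which passes cholesterol on to mature high-density lipoprotein, moved less. It was at 10.28, 10.06 and 9.85 in DiI-negative and at 10.76, 10.44 and 10.73 in DiI-positive cells after empty liposomes. The curcumin libraries had 10.13, 10.39 and 9.88 in DiI-negative and 10.69, 10.62 and 10.68 in DiI-positive cells. Its gates were separated by a narrow gap, from 10.39 to 10.44. The difference was 0.56 ± 0.11, or 1.47-fold (limma adjusted p = 0.0075).

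Apoe (chr7:19696109-19699188, minus strand) encodes apolipoprotein E, which macrophages secrete and which accepts exported cholesterol. After empty liposomes its values were 16.97, 17.31 and 17.54 in DiI-negative and 18.05, 18.11 and 18.33 in DiI-positive cells. After curcumin liposomes they were 17.04, 17.68 and 16.20 in DiI-negative and 18.38, 18.55 and 18.37 in DiI-positive cells. All 6 DiI-positive libraries were above all 6 DiI-negative ones, and the lowest value was in curcumin DiI-negative replicate 3. The difference was 1.18 ± 0.20, or 2.26-fold (limma adjusted p = 0.0037).

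Apoc1 (chr7:19689481-19692660, minus strand), a small apolipoprotein of the same gene cluster as Apoe, had the largest difference of the 10 genes. It was at 6.27, 6.57 and 6.10 in DiI-negative and at 7.06, 7.82 and 8.32 in DiI-positive cells after empty liposomes. It was at 6.64, 6.51 and 6.73 in DiI-negative and at 8.21, 8.34 and 9.10 in DiI-positive cells after curcumin liposomes. The DiI-positive libraries spread over 7.06 to 9.10, wider than the DiI-negative ones at 6.10 to 6.73. The difference was 1.68 ± 0.21, or 3.2-fold (limma adjusted p = 0.00086). Its values lie low on the scale. If the scale is a shrunken one, fold changes there would be understated, and so would the spread of the low DiI-negative values.

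Pltp (chr2:164839518-164857711, minus strand) encodes the phospholipid transfer protein, which moves phospholipid between lipoproteins. After empty liposomes it was at 11.50, 11.71 and 11.71 in DiI-negative and at 12.25, 12.53 and 12.87 in DiI-positive cells. After curcumin liposomes it was at 11.60, 11.85 and 11.81 in DiI-negative and at 12.57, 12.58 and 13.04 in DiI-positive cells. The DiI-negative libraries lay within 11.50 to 11.85 and the DiI-positive ones within 12.25 to 13.04. The difference was 0.94 ± 0.12, or 1.92-fold (limma adjusted p = 0.00076).

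Scd1 (chr19:44394455-44407879, minus strand) encodes the stearoyl-CoA desaturase that makes monounsaturated fatty acids. It had the smallest adjusted p of the 10 genes. Its values after empty liposomes were 11.26, 11.56 and 11.64 in DiI-negative and 12.98, 12.97 and 12.86 in DiI-positive cells. After curcumin liposomes they were 11.50, 11.51 and 11.09 in DiI-negative and 12.58, 13.15 and 12.20 in DiI-positive cells. No DiI-negative library exceeded 11.64 and no DiI-positive one was under 12.20, the value of curcumin DiI-positive replicate 3. The difference was 1.36 ± 0.15, or 2.57-fold (limma adjusted p = 0.00032). Its close paralog Scd2 was at -0.22 ± 0.16 and did not pass (limma adjusted p = 0.42).

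Mylip (chr13:45389742-45412022, plus strand) encodes IDOL, a ubiquitin ligase that limits the uptake of lipoproteins. After empty liposomes it was at 10.23, 10.15 and 10.30 in DiI-negative and at 10.34, 10.38 and 10.53 in DiI-positive cells. After curcumin liposomes it was at 9.87, 9.96 and 9.75 in DiI-negative and at 10.51, 10.55 and 10.37 in DiI-positive cells. The DiI-negative cells of the curcumin mice were the lowest of the 4 groups, and the highest DiI-negative library (10.30) nearly reached the lowest DiI-positive one (10.34). The difference of 0.40 ± 0.07, or 1.32-fold, was the smallest of the 8 calls (limma adjusted p = 0.0053).

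Lpcat3 (chr6:124663027-124704418, plus strand) encodes the acyltransferase that puts polyunsaturated chains into membrane phospholipids. Its values lay between 10.24 and 10.53 in DiI-negative and between 10.44 and 10.88 in DiI-positive libraries, and the gates overlapped. The difference was 0.19 ± 0.09 (limma adjusted p = 0.19). Srebf1 (chr11:60199089-60222581, minus strand) encodes the transcription factors SREBP-1a and SREBP-1c, which drive fatty acid synthesis, and LXR is known to act on the SREBP-1c form. The gene-level value joins both forms. It ran from 11.40 to 11.63 in DiI-negative and from 11.05 to 11.76 in DiI-positive libraries, so the DiI-positive cells were on both sides of the DiI-negative ones. The difference was -0.13 ± 0.12 (limma adjusted p = 0.55).

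**Figure D2:**
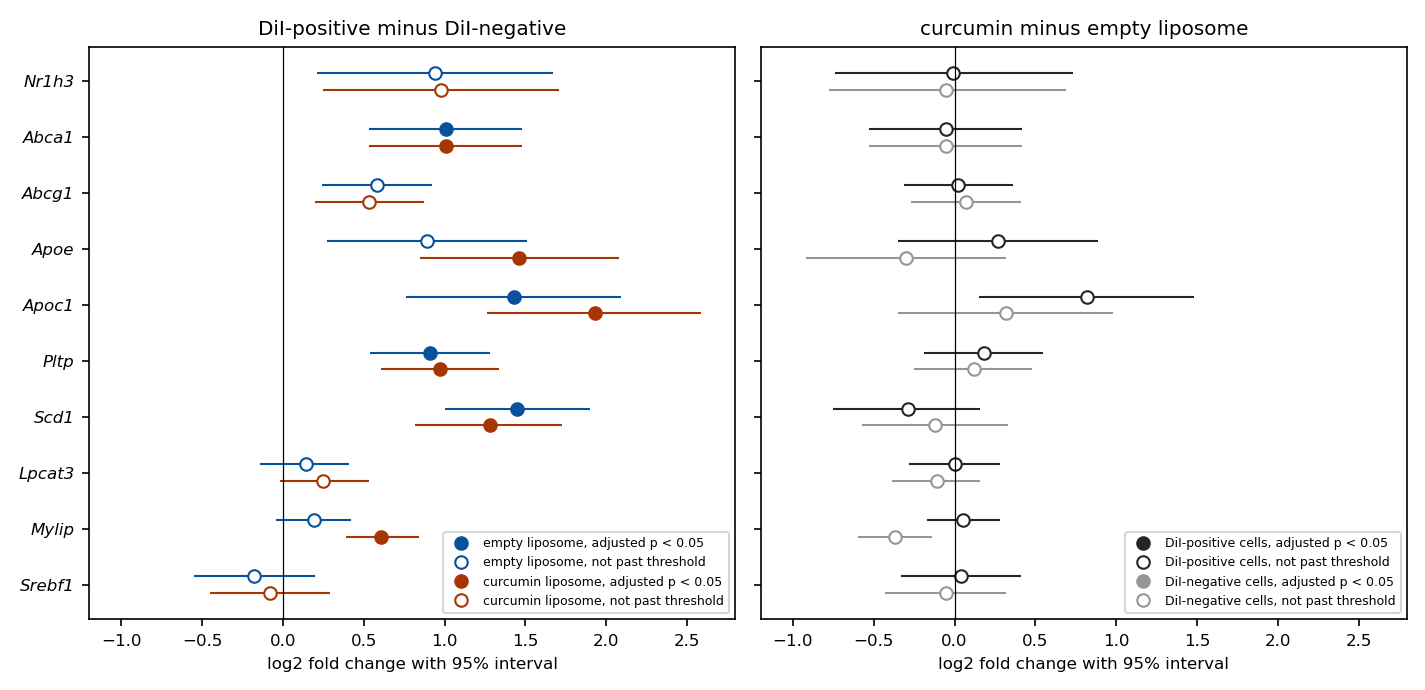
Log2 fold changes of the 10 genes with 95% intervals from limma, for DiI-positive minus DiI-negative cells under each liposome (left) and for curcumin minus empty liposome in each gate (right). Filled points passed an adjusted p of 0.05. In the left panel 4 genes are filled after empty and 6 after curcumin liposomes, and in the right panel none is.

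Taken separately, each liposome called fewer of the genes. After empty liposomes 4 of the 10 passed, all higher in DiI-positive cells: Scd1 (1.45 ± 0.21, limma adjusted p = 0.0063), Pltp (0.91 ± 0.17, 0.017), Apoc1 (1.43 ± 0.30, 0.032) and Abca1 (1.01 ± 0.22, 0.034). Of all genes tested, 1.32% were called higher there. Abcg1 (0.58 ± 0.15, 0.069), Apoe (0.89 ± 0.28, 0.12) and Nr1h3 (0.94 ± 0.34, 0.16) did not pass, nor did Mylip (0.19 ± 0.10, 0.37), Lpcat3 or Srebf1. The libraries of the 2 gates did not overlap, with DiI-positive higher, for 9 of the 10 genes, Srebf1 being the exception, against 12.3% of all genes tested. The count of calls rested on single libraries: it was 1 without any DiI-negative replicate or without DiI-positive replicate 2, 2 without DiI-positive replicate 3, and 3 without DiI-positive replicate 1. Abca1 lost its call without any of the 6 empty-liposome libraries, Apoc1 without any of them but DiI-positive replicate 1, and Pltp without any DiI-negative replicate or DiI-positive replicate 2. Scd1 passed in every one of the 21 alternatives run.

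After curcumin liposomes 6 of the 10 passed, again all higher: Apoc1 (1.93 ± 0.30, limma adjusted p = 0.0096), Scd1 (1.28 ± 0.21, 0.011), Mylip (0.61 ± 0.10, 0.012), Pltp (0.97 ± 0.17, 0.013), Apoe (1.46 ± 0.28, 0.020) and Abca1 (1.01 ± 0.22, 0.033). Called higher there were 1.41% of all genes tested. Abcg1 (0.53 ± 0.15, 0.087), Nr1h3 (0.98 ± 0.34, 0.14), Lpcat3 (0.25 ± 0.13, 0.32) and Srebf1 (-0.08 ± 0.17, 0.86) did not pass. The gates did not overlap for 8 of the 10 genes, against 9.88% of all genes tested. The count of calls was 3 without DiI-negative replicate 1 or without DiI-positive replicate 2, and 1 when the 6 curcumin libraries were fitted alone. Without DiI-negative replicate 1, the calls of Apoe, Mylip and Pltp ended. Without DiI-positive replicate 2, those of Apoe, Mylip and Abca1 did. Apoe also lost its call without DiI-positive replicate 1, and Abca1 without DiI-negative replicate 2 or 3 or empty DiI-negative replicate 2. Without replicate 3 of both curcumin gates, 5 genes passed under each liposome and 8 in the mean of both. Apoc1 passed in every one of the 21 alternatives run, with an adjusted p of at most 0.043.

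The test of whether the difference between gates itself depended on the liposome called none of the 10 genes and none of all genes (limma, smallest adjusted p = 0.999, with 527 genes, 3.70%, at an unadjusted p under 0.05). Among the 10, the largest differences of the effects were in Apoe (0.57 ± 0.40), Apoc1 (0.50 ± 0.43) and Mylip (0.42 ± 0.15, unadjusted p = 0.015). For Abca1 it was 0.00, with effects of 1.01 under each liposome. With 1 library left out, 0 to 2 of all genes were called and none of the 10.

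The second question is whether the curcumin cargo made a difference within a gate. In DiI-positive cells none of the 10 genes and none of all genes passed (limma, smallest adjusted p = 0.301, with 1165 genes, 8.19%, at an unadjusted p under 0.05). The median difference of the 10 genes was 0.03. Nr1h3 averaged 12.20 ± 0.54 after empty and 12.20 ± 0.0069 after curcumin liposomes (SD, n = 3), a ratio between 0.599 and 1.66 at 95% confidence. For Abca1, at 11.41 ± 0.24 and 11.35 ± 0.34, the interval of the ratio ran from 0.692 to 1.34. Abcg1 had the interval 0.804 to 1.28, Pltp 0.878 to 1.46, Scd1 0.596 to 1.12, Lpcat3 0.826 to 1.21, Mylip 0.887 to 1.22 and Srebf1 0.797 to 1.33. Changes within these bounds were not resolved by 3 libraries a group. With 1 library left out, 0 to 4 of all genes were called, the 4 without curcumin DiI-positive replicate 3, and none of the 10.

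Apoc1 was the gene of the 10 furthest from 0 in that comparison, at 8.55 ± 0.48 after curcumin and 7.74 ± 0.63 after empty liposomes. The difference was 0.82 ± 0.30, or 1.76-fold (95% interval 1.11 to 2.79), with an unadjusted p of 0.02 and a limma adjusted p of 0.54. The libraries overlapped, since the highest after empty liposomes (8.32) was above the lowest after curcumin (8.21). Apoe did not overlap, at 18.05 to 18.33 after empty and 18.37 to 18.55 after curcumin liposomes, a pattern that 4.93% of all genes shared. Its difference was 0.27 (interval of the ratio 0.786 to 1.85, limma adjusted p = 0.83). The Kupffer cell markers described below were also higher in the curcumin DiI-positive libraries. All 16 differences were above 0, with a median of 0.69 and none called. Such a shift was not particular to them. All 8 sinusoidal endothelial markers (median 0.56) and all 6 of type 1 conventional dendritic cells (0.32) were also above 0. So were 10 of 12 hepatocyte markers (0.32), whereas none of 10 B cell (-0.28) or 6 neutrophil markers (-0.63) was. The median over all genes tested was 0.

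In DiI-negative cells the cargo comparison again called none of the 10 genes and none of all genes (limma, smallest adjusted p = 0.722, with 469 genes, 3.30%, at an unadjusted p under 0.05). The differences ran from -0.37 to 0.32 with a median of -0.05. Mylip was the lowest, at 9.86 ± 0.10 after curcumin and 10.23 ± 0.078 after empty liposomes (SD, n = 3). That difference of -0.37 ± 0.10 had an unadjusted p of 0.0045, rank 25 of 14227 genes, and a limma adjusted p of 1. All 3 curcumin libraries were below all 3 empty ones, as for 5.50% of all genes tested.

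Few genes for partners of the receptor passed the test. Of 12 genes for LXR beta, RXRs, co-repressors and co-activators, 11 were tested. None rose and 1 fell in DiI-positive cells (mean of both liposomes), with a median of 0.01. Of all genes tested, 5.54% were called higher and 6.56% lower there, the shares to set beside each list count below. Few calls among 11 genes therefore do not set this list apart. Nr1h2, which encodes LXR beta, was between 11.34 and 11.61 in every library (0.01 ± 0.07, limma adjusted p = 0.95). Rxra, the RXR form most used in liver and macrophages, differed by 0.13 ± 0.23 (adjusted p = 0.78). Rxrb, another RXR form, was the 1 that fell (-0.28 ± 0.07, adjusted p = 0.027), and its call ended without any of 6 single libraries: replicate 1 of either DiI-negative group, replicate 2 or 3 of empty DiI-positive cells, curcumin DiI-negative replicate 3 or curcumin DiI-positive replicate 2.

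Other genes known as LXR targets were split. Of 15, 12 were tested, 4 rose and 1 fell, with a median of 0.20. Il18bp, which binds interleukin-18, averaged 8.17 ± 0.21 and 10.71 ± 0.39 in DiI-negative and DiI-positive cells after empty liposomes and 8.50 ± 0.26 and 11.18 ± 0.51 after curcumin (2.61 ± 0.18, limma adjusted p = 6.1e-05). Cd5l, a secreted macrophage protein that is also in the Kupffer cell marker list, rose by 3.31 ± 0.35 (adjusted p = 0.00032). Mertk, the receptor for apoptotic cells, rose by 1.53 ± 0.23 (adjusted p = 0.0019), and lipoprotein lipase, Lpl, by 1.02 ± 0.16 (adjusted p = 0.0027). Fasn, fatty acid synthase, named after its value was seen, was the 1 that fell (-0.63 ± 0.13, adjusted p = 0.012). The sterol exporters Abcg5 and Abcg8 were listed at 0 in every library, and Apoc4 was too low to test.

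Of 8 genes that make or clear oxysterols, 7 were tested and none passed as higher. With 5.54% of all genes called higher and 6.56% lower, few calls among 7 genes do not set this list apart. The median was -0.15, and 1 gene fell. It was Cyp11a1, the side-chain cleavage enzyme that makes pregnenolone from cholesterol, at 8.82 ± 0.17 and 7.06 ± 0.53 in DiI-negative and DiI-positive cells after empty liposomes (-1.48 ± 0.26 over both, limma adjusted p = 0.0041). Of 14 genes of cholesterol uptake, storage and transport within the cell, 13 were tested, 3 rose and 1 fell, with a median of 0.15. The acid lipase Lipa (0.60 ± 0.14, adjusted p = 0.016), the endosomal cholesterol transporter Npc1 (0.47 ± 0.11, 0.022) and the scavenger receptor Cd36 (0.97 ± 0.26, 0.031) rose. Only 1 gene of the list rose without replicate 1 of either DiI-negative group or without empty DiI-positive replicate 3, and 2 rose without empty DiI-negative replicate 2 or 3 or empty DiI-positive replicate 1. The number that fell was 4 without curcumin DiI-positive replicate 3.

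Genes of the SREBP2 system and of sterol synthesis were lower where they differed. All 15 were tested, none rose and 6 fell, with a median of -0.34. Hmgcs1, an early enzyme of cholesterol synthesis, averaged 11.16 ± 0.31 and 10.44 ± 0.26 in DiI-negative and DiI-positive cells after empty liposomes and 11.43 ± 0.047 and 10.45 ± 0.17 after curcumin (-0.85 ± 0.12, limma adjusted p = 0.0013). Squalene epoxidase, Sqle, fell by -0.72 ± 0.09 (adjusted p = 0.00091), Cyp51 by -0.69 ± 0.13 (0.0053) and Mvd by -0.48 ± 0.08 (0.0035). Srebf2 itself, named after its value was seen, also fell (-0.34 ± 0.09, 0.028). For Hmgcs1, Sqle, Mvd and Srebf2 all 6 DiI-positive libraries lay below all 6 DiI-negative ones, as for 3.52% of all genes tested. The count was 4 without replicate 1 of curcumin DiI-positive or empty DiI-negative cells or replicate 2 of empty DiI-positive cells. Srebf1, described above, passed in neither direction. Without replicate 3 of both curcumin gates, 0 partner genes rose and 1 fell, 4 other LXR targets rose and 1 fell, 2 oxysterol genes fell, 2 uptake and storage genes rose and 3 fell, and 5 sterol synthesis genes fell. The difference of the 10 genes from these lists was not tested, and the lists were chosen with earlier results of these data known.

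**Figure D3:**
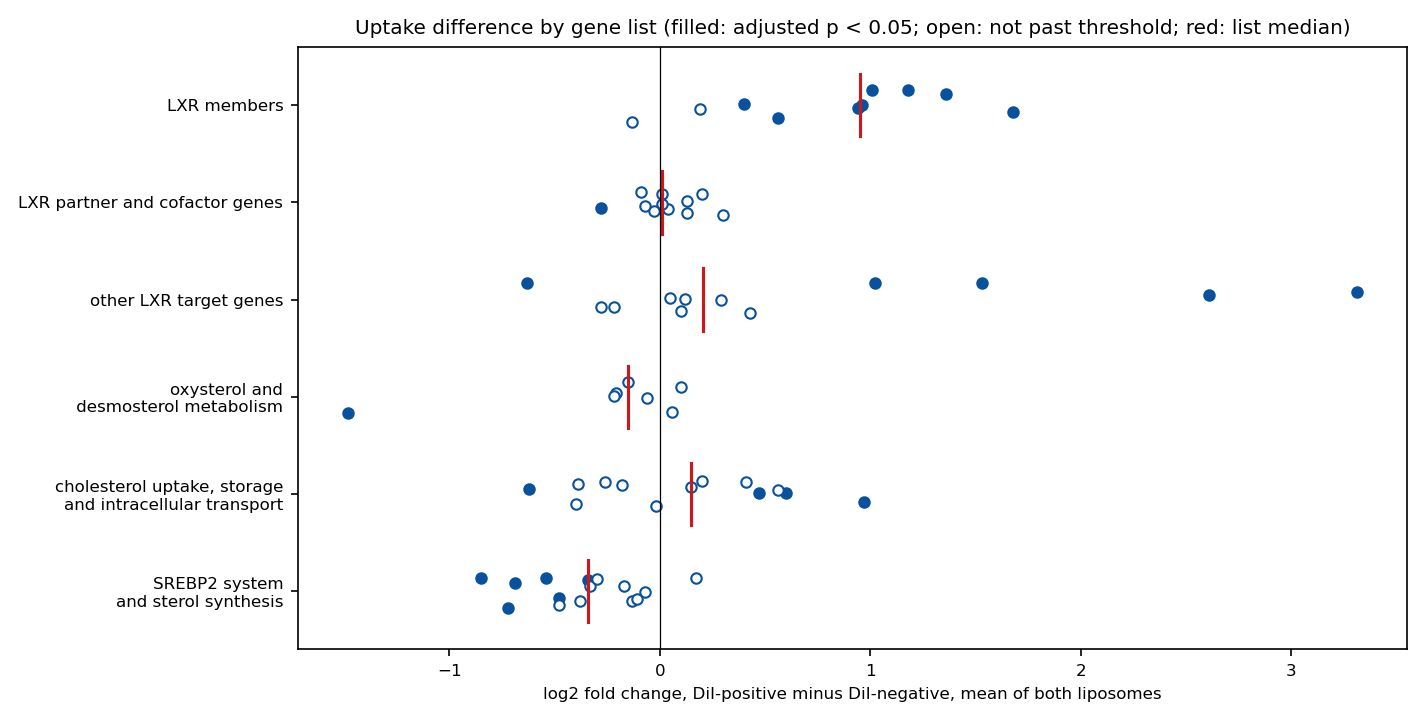
Log2 fold changes, DiI-positive minus DiI-negative cells, mean of both liposomes, for the tested genes of 6 lists, 1 point per gene (vertical jitter only separates points). Filled points passed an adjusted p of 0.05, and red bars are list medians. The 10 genes have a median of 0.95, the partner genes 0.01 and the SREBP2 and sterol synthesis genes -0.34.

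Markers of other cell types moved with the same gates. Of 16 Kupffer cell markers, 14 were higher in DiI-positive cells (mean of both liposomes, median 2.43) and none was lower. Clec4f, a lectin of Kupffer cells, averaged 8.51 ± 0.47 and 13.02 ± 1.3 in DiI-negative and DiI-positive cells after empty liposomes, and none of the 16 markers was at 0. The log2 of their summed level was 15.47 to 16.01 and 15.28 to 15.90 in the DiI-negative libraries (empty and curcumin), and 16.55 to 17.63 and 17.02 to 17.75 in the DiI-positive ones. All 10 B cell markers were higher as well (median 1.21). Lower were 8 of 10 T and NK cell markers (median -1.48) and 5 of 6 monocyte markers (-1.04). The monocyte count was 4 or 5 with 1 library left out. Also lower were 4 of 6 markers of type 2 conventional dendritic cells (-1.17). The T cell gene Cd3e averaged 6.81 and 6.6 in DiI-negative and DiI-positive cells after empty liposomes, and 6.71 and 6.65 after curcumin. Cd3d averaged 6.92 and 6.55, then 6.65 and 6.66. Of 6 markers of type 1 conventional dendritic cells 1 was higher and 1 lower (-0.65). Without curcumin DiI-positive replicate 3, 0 were higher and 4 lower. Of 8 sinusoidal endothelial markers 1 was higher (0.51), a count of 0 or 1 with 1 library left out. Their median was 0.03 without curcumin DiI-positive replicate 3. Of 12 hepatocyte markers tested, 3 were higher (median 0.36), a count that ran from 0 without empty DiI-negative replicate 1 to 5 without curcumin DiI-positive replicate 3. The log2 of their summed level was 9.42 to 10.02 in DiI-negative and 9.76 to 10.86 in DiI-positive libraries. Of the 12 differences, 11 were above 0. Alb did not pass (0.79 ± 0.25, limma adjusted p = 0.062), and Apoc3, at 2.32 to 2.44 in all libraries, was too low to test. The part of these cell types in the values of the 10 genes was not tested.

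Within a gate, the relation of each gene to the Kupffer cell markers (the mean of the 16, which hold none of the 10 genes) was computed over 6 libraries, as 20 relations in all. In DiI-positive cells, Apoc1 followed the markers with r = 0.95 (exact permutation p = 0.0028, adjusted 0.042), a Spearman rho of 0.94 (p = 0.017, adjusted 0.17), and r = 0.87 without the 2 libraries furthest from the median. Pltp had r = 0.92 (exact permutation p = 0.0042, adjusted 0.042), a rho of 1.00 (p = 0.0028, adjusted 0.056), and r = 0.84 without those 2. The relation of Apoe (r = 0.76, rho 0.54), Nr1h3 (0.67, 0.77), Mylip (0.52, 0.37), Abca1 (0.11, 0.26), Abcg1 (-0.04, -0.14), Lpcat3 (0.00, -0.09), Srebf1 (0.22, 0.31) and Scd1 (-0.46, -0.54) did not pass, with adjusted exact permutation p-values of 0.30 to 1. Without the 2 libraries furthest from the median, which leaves 4, r was 0.92 for Nr1h3, 0.90 for Srebf1 and 0.83 for Mylip. It was 0.81 for Abca1, 0.79 for Abcg1, 0.68 for Lpcat3, 0.59 for Apoe and 0.16 for Scd1. Values on 4 libraries, also those of Apoc1 and Pltp, were not tested. So few libraries cannot tell whether the r on 6 or the r on 4 describes a gene better. In DiI-negative cells no relation passed; the strongest were Pltp (r = 0.83) and Abca1 (r = -0.82), each with an adjusted exact permutation p of 0.25. The 6 libraries of a gate mix both liposomes, and 3 libraries of 1 liposome are too few for a correlation.

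The same 20 relations were computed with the mean of the 10 B cell markers, a choice made after the data were seen. Scd1 had r = 0.94 in DiI-negative cells (exact permutation p = 0.0069, adjusted 0.14), a Spearman rho of 0.83 (p = 0.058, adjusted 0.58), and r = 0.92 without the 2 libraries furthest from the median. In DiI-positive cells Scd1 had r = 0.84 (exact permutation p = 0.062, adjusted 0.28), a rho of 0.60 (p = 0.24, adjusted 0.60), and r = 0.09 without those 2. Apoe had r = 0.92 with the B cell markers in DiI-negative cells (exact permutation p = 0.021, adjusted 0.21), a rho of 0.89 (p = 0.033, adjusted 0.58), and r = 0.64 without the 2. Lpcat3 had r = 0.86 there (exact permutation p = 0.044, adjusted 0.28), a rho of 0.77, and r = -0.17 without the 2. For Nr1h3 in DiI-negative cells r was 0.78, and for Pltp in DiI-positive cells it was -0.75. No relation to the B cell markers passed the adjustment. Adjusted over all 40 relations with both marker lists, the exact permutation p of r was 0.083 for Apoc1 and Pltp with the Kupffer cell markers and 0.093 for Scd1 with the B cell markers, so none passed.

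**Figure D4:**
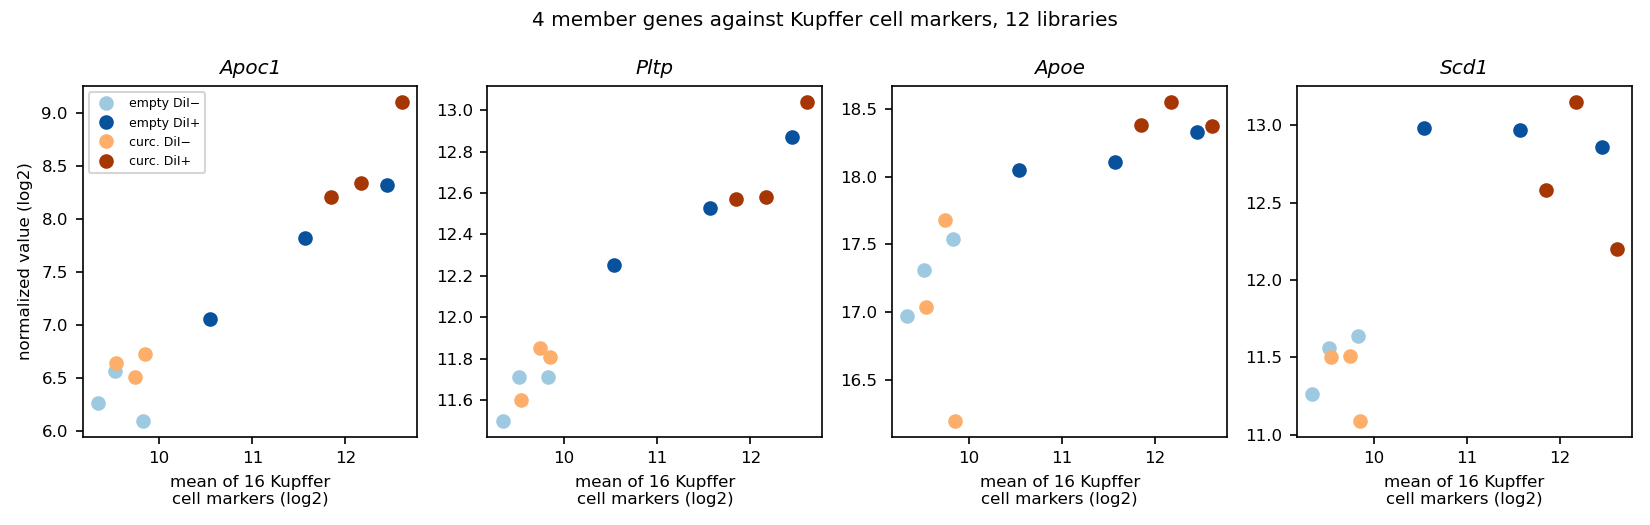
Normalized log2 value of Apoc1, Pltp, Apoe and Scd1 (vertical axes, not starting at 0) against the mean log2 value of 16 Kupffer cell markers (horizontal axes), 1 point per library. Within DiI-positive libraries r is 0.95 for Apoc1, 0.92 for Pltp and -0.46 for Scd1. Without the 2 libraries furthest from the median it is 0.87, 0.84 and 0.16. Adjusted over the 40 relations with Kupffer and B cell markers, the exact permutation p of Apoc1 and Pltp is 0.083. The difference between genes was not tested.

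Over all 12 libraries, the genes most like Nr1h3 among 11494 tested genes with an official symbol were Acp2, Slc7a8, Itga9, C1qa and Axl, each with a Pearson r of 0.96. Acp2, a lysosomal acid phosphatase, lies 50 bases from Nr1h3 on the opposite strand and rose by 0.65 ± 0.14 (limma adjusted p = 0.013). Apoe ranked 16 for Nr1h3 (r = 0.93), and Srebf1 had r = -0.08. The genes most like Apoe were the 3 chains of complement C1q, C1qb (0.99), C1qa (0.98) and C1qc (0.98), then Loxl3 (0.98) and Blvrb (0.97). For Abca1 they were Tnfrsf26, Abcc3 and Mcoln2 (0.94) and Gnptg and St6gal1 (0.93), and among the 10 genes Scd1 came closest (0.90, rank 15). These values are descriptions: the 12 libraries hold both gates, so any gene that differs between gates scores high, and C1qa, C1qb and C1qc are themselves in the Kupffer cell marker list.

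Some of the genes share exon bases with a neighbour on the opposite strand, and the library kit does not mark strand, so reads there cannot be told apart. Ctsa shares 495 of the 2562 exon bases of Pltp (19.3%) and differed by 0.23 ± 0.09 (mean of both liposomes, limma adjusted p = 0.12), less than Pltp did. Emg1 shares 334 of the 3268 exon bases of Lpcat3 (10.2%) and differed by 0.02 ± 0.08 (adjusted p = 0.92). Rai1 shares 109 of the 5634 exon bases of Srebf1 (1.9%) and differed by -0.27 ± 0.14 (adjusted p = 0.23).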

How the data were processed

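The authors deposited gene-level log2 values, 1 column per library. The submitters' processing notes name STAR 2.4.0d, DESeq2 1.8.1 and GRCm38; counter, annotation and transform are not stated there. In form the values match a shrunken (regularized) log2 scale, and they give no read number, so precision is the spread between libraries. Per the labels, RNA was amplified with a low-input SMARTer kit and libraries were made with Nextera XT. The 24 sample records carry 12 library codes, each counted as 1 library, with EL or CL in a code taken as the empty or curcumin liposome and P or N as the DiI gate. Whether these 12 came from separate mice or from pooled ones is not stated, so a p-value reflects library-to-library spread, which may be technical.

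Genes with a mean log2 of at least 4 (14227 of 45792) were fitted with limma 3.58.1 (R 4.3.3): 12 libraries, 4 group means, eBayes with trend, Benjamini-Hochberg adjusted p under 0.05. The fit was tested on simulated data. Gene positions came from GENCODE M21, and promoters from RefSeq, on GRCm38. The 10 genes are named in every comparison. Of other pathway lists, up to 4 with the smallest p (mean of both liposomes) are named, with Nr1h2 and Rxra always, and the 5 genes most like Nr1h3, Abca1 and Apoe. Members and lists were chosen with earlier results of these data known. Alternatives changed the filter, trend, weights, centring, libraries and block. Some results are not reported here.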

Additional observations from a re-analysis of the deposited data

How the results depend on the processing

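None of the 10 genes changed direction at a call in any alternative. In the mean of both liposomes, 7 of the 8 calls passed in all 20 alternatives and Nr1h3 in 18. With 1 library left out, the genes called ran from 1 to 5 of the 10 and from 85 to 659 of all genes after empty liposomes, from 3 to 6 and from 114 to 1088 after curcumin liposomes, and from 7 to 8 and from 1149 to 2244 in the mean. The 85 was without empty DiI-negative replicate 1, the 114 without curcumin DiI-negative replicate 1, and the 659 and 1088 without curcumin DiI-positive replicate 3. Against 419 (empty) and 437 (curcumin) genes, no filter on low values called 263 and 248, with 2 of the 10 genes after empty liposomes. Library weights called 789 after empty liposomes. The 6 curcumin libraries alone called 40 genes and 1 of the 10. Without replicate 3 of both curcumin gates, chosen after seeing the data, 666 and 706 genes were called, 3 in the cargo comparison of DiI-positive cells and 1 in the difference between gates. With 1 library left out, the cargo comparison of DiI-positive cells called 0 to 4 genes and the difference between gates 0 to 2, none of them among the 10. Named after their values were seen, they were Fras1, Kcnj16, Tcaf1, Itih4, Osmr, Mxra8, Galnt18, Cd300lg, Cps1, Pbld2, Serpina1b and Aldh1a1. The cause was not tested.

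Libraries with the same replicate number did not all deviate together. Between the 2 gates of 1 liposome the correlations ran from 0 to 0.33, the highest between the third curcumin libraries of both gates. Between liposomes they ran from -0.11 to 0.17. The number was not taken as a pairing in the main fit, although these values do not settle whether the 2 gates of 1 liposome are paired. With a replicate block the fit called 405, 407 and 1616 genes after empty liposomes, after curcumin liposomes and in the mean, and 3, 5 and 8 of the 10; with a block within each liposome it called 390, 448 and 1555, and 3, 5 and 8. The call lost was Abca1, with the log2 fold change still 1.01 after both liposomes and limma adjusted p-values of 0.052 (empty) and 0.051 (curcumin) with a replicate block, and 0.078 and 0.073 with a block within each liposome. The fit of only the libraries compared is the same as the main one for the mean and for the difference between gates, and a block within each liposome cannot be fitted to the cargo comparisons, so these were not run. The number of reads is unknown, so depth sets no limit that can be given, and 3 libraries a group limit the precision.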
